A study of Mus with 9 samples.

Results

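The genes described here are 31 genes of cholesterol and fatty acid synthesis, uptake and efflux, in mouse bone marrow that carries the AML1-ETO fusion. They were picked by symbol from a count table of 54532 genes. All 31 had reads, and all 31 were among the 15660 genes that passed a filter on low counts and were tested. RNA was sequenced from 9 libraries of marrow cells, 3 in each of 3 groups. In every group, the marrow came from lethally irradiated C57BL/6 mice given supportive cells together with mCherry+ GFP+ fetal liver cells. Those liver cells were taken from embryos at day 12.5 of a conditional knock-in mouse whose AML1-ETO gene was joined to mCherry, so that the controls carried the fusion too. The cells had been infected with the retroviral vector MSCV-IRES-EGFP, either empty (Vec) or holding cyclin D2 in its wild type form (CCND2wt) or with the substitution Thr280Ala (CCND2mut). The labels name the RNA source only as bone marrow cells, and cells of the host or of the supportive marrow may be among them. Libraries are called by the numbers in the labels, which are Vec 1, 2 and 4, CCND2wt 2, 3 and 4, and CCND2mut 1, 2 and 3, and values are given in that order.

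Cells make cholesterol from acetyl-CoA through mevalonate, farnesyl pyrophosphate, squalene and lanosterol. When sterols in the endoplasmic reticulum are scarce, the escort protein SCAP carries the membrane-bound factors SREBP1 and SREBP2 to the Golgi, where proteases release the parts that enter the nucleus and raise transcription of these enzymes. INSIG proteins hold SCAP back when sterols are plentiful, and oxysterols activate the LXR receptors, which raise transcription of the efflux transporters. Dividing blood cells draw on both synthesis and uptake for membrane lipid.

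The libraries held 15043755 to 17593634 counts. Levels are given as TMM-scaled CPM, which divides each count by library size, or, where genes are compared with each other, also per kilobase (RPKM). Ccnd2, the gene named in the labels, stood at 76.2, 79.0 and 86.2 CPM in Vec, 7.30, 9.29 and 11.1 in CCND2wt, and 12.6, 58.2 and 51.1 in CCND2mut, so that it was lowest in the libraries labelled as carrying wild type cyclin D2. All directions given here hold between libraries as labelled, not between measured doses of cyclin D2. The CCND2wt libraries lay closer to each other than those of the other groups, with a chi-square per gene of 6.998 to 17.7 against 53.3 to 148 for other pairs within a group. The labels do not say that libraries came from separate animals, and the p-values then reflect only how far these samples spread, which can be technical variation. All 8 haematopoietic and myeloid markers were detected in every library, and their sum was 3242 to 3603 CPM in Vec, 4385 to 4642 in CCND2wt and 5286 to 11010 in CCND2mut. Of these 8, chosen after their values were seen, the stem and mast cell receptor Kit averaged 796 ± 105 CPM in Vec, 1107 ± 11.6 in CCND2wt and 82.0 ± 35.7 in CCND2mut and the granule protease Elane 32.7 ± 47.2 CPM in Vec, 2.03 ± 0.127 in CCND2wt and 674 ± 607 in CCND2mut (mean ± SD, n = 3). Within Vec, Elane stood at 87.3 CPM in Vec 1 and at 5.70 and 5.19 in Vec 2 and 4. Ctsg, another granule protease of the 8, went the other way in CCND2wt, averaging 398 CPM in Vec, 1438 in CCND2wt and 3266 in CCND2mut. In CCND2wt against Vec, Ctsg was higher and 3 of the 8 were lower (edgeR adjusted p under 0.05). That is 50%, against 18.8% of all genes tested. In bulk RNA, fewer cells of a type and less RNA per cell cannot be told apart.

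In CCND2mut against Vec, enzymes of the late sterol pathway rose the most by fold, with Sc5d 10.1-fold, Sqle 5.82-fold, Hsd17b7 4.11-fold and Cyp51 3.30-fold higher. The desaturase Scd2 and the carboxylase Acaca rose as well, while Vldlr, Abcg1 and Scd1 fell. Of the 31 genes, 13 rose and 3 fell, which is 51.6%, and over all genes tested 51.8% passed the same threshold (edgeR, adjusted p under 0.05), so that the share called was close to the background. By direction, 41.9% of the members rose against 24.9% of all genes tested, and 9.68% fell against 26.9%. The median log2 fold change of the members was 0.42, and that of all genes tested was -0.03. In 18 of the 31 genes the CCND2mut and Vec libraries did not overlap, a share of 58.1% against 56.7% of all genes tested. Leaving out 1 library at a time left 11 to 16 members past the threshold, and 10 of the 16 passed in every such fit.

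In CCND2mut against CCND2wt, 12 members were higher and 3 lower. Sc5d was 6.25-fold, Mvd 5.15-fold, Hsd17b7 4.04-fold and Sqle 3.19-fold higher in CCND2mut, and Srebf1, Srebf2 and Scap were all higher. The members below CCND2wt were Acat2, Dhcr7 and Stard4. In all 48.4% of the members passed, against 47% of all genes tested. Of the members, 38.7% were higher, against 23.2% of all genes tested, and 9.68% were lower, against 23.8%. Their median log2 fold change was 0.46, against 0.02 for all genes tested. Libraries of these groups did not overlap in 18 of the 31 genes (58.1%, against 63.1% of all genes tested). When the CCND2wt libraries were summed to 1 sample, 2 members passed.

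In CCND2wt against Vec, changes went both ways within the same pathway. Insig2, Acat2, Idi1, Cyp51 and Stard4 rose, by 1.65-fold to 2.22-fold, and Srebf2, Scap, Mvd, Vldlr, Abcg1 and Scd1 fell. These 11 genes are 35.5% of the members, against 18.8% of all genes tested. Those that rose are 16.1% against 9.71%, and those that fell 19.4% against 9.05%. The median log2 fold change was 0.13, beside -0.04 over all genes tested. The groups did not overlap in 16 of the 31 genes, or 51.6% against 48.3% of all genes tested. Vldlr and Scap alone kept their call in every fit that left out 1 library. Without CCND2wt 2, CCND2wt 3 or CCND2wt 4, 2 members passed, without Vec 4 they were 4 and without Vec 2 they were 6. With the CCND2wt libraries summed to 1 sample, edgeR called 0 members, and 6 had an unadjusted p under 0.05. The comparisons with Vec share their 3 control libraries.

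**Figure D1:**
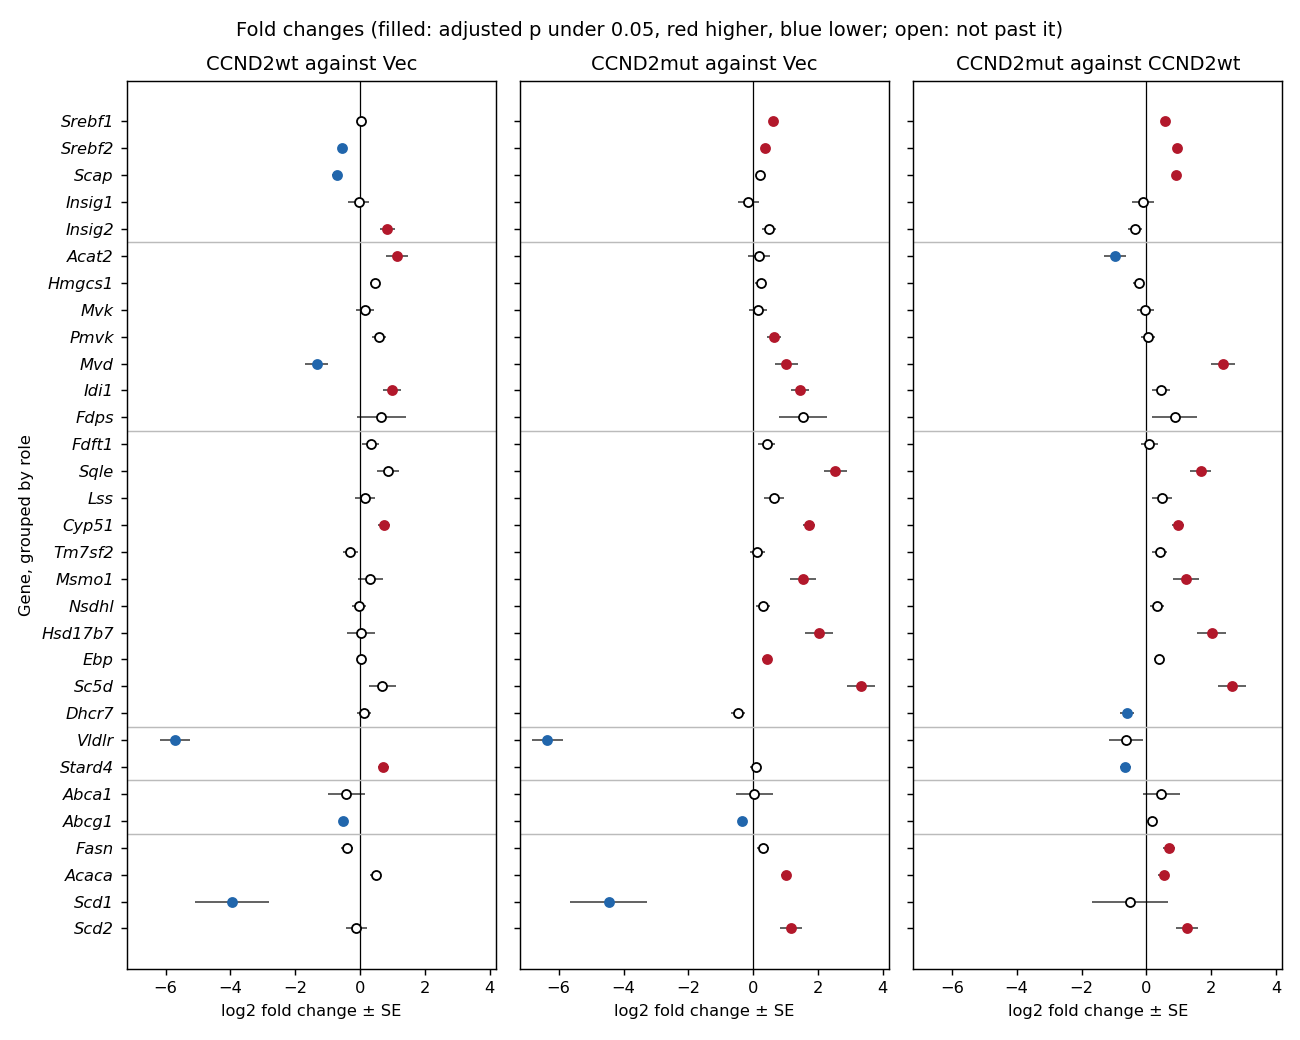
Log2 fold change of each of the 31 genes (vertical axis, grouped by role) in the 3 comparisons, with bars of 1 SE and filled points past an edgeR adjusted p of 0.05. Most sterol enzymes lie to the right of 0 in the panel of CCND2mut against Vec, while Vldlr and Scd1 lie at -6.35 and -4.46.

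In at least 1 of the 3 comparisons, 22 of the 31 genes passed, or 71.0%, against 65% of all genes tested. Insig1, Hmgcs1, Mvk, Fdps, Fdft1, Lss, Tm7sf2, Nsdhl and Abca1 passed in none. Summed over the 18 enzymes of the mevalonate, squalene and sterol steps, the level was 193, 137 and 152 CPM in Vec. The same sum was 201, 204 and 199 CPM in CCND2wt, and 283, 285 and 380 CPM in CCND2mut. Each CCND2mut library thus lay above each of the other 6, and the CCND2wt libraries lay just above Vec 1, the highest of the Vec libraries. The 7 mevalonate genes alone summed to 45.2 to 66.0 CPM in Vec, 71.85 to 77.7 in CCND2wt and 73.0 to 89 in CCND2mut. They thus overlapped between CCND2wt and CCND2mut. The 11 squalene and sterol genes summed to 91.95 to 127 CPM in Vec, 122 to 129 in CCND2wt and 209 to 291 in CCND2mut. Summed levels of 12 cell division markers were 1163 to 2056 CPM in Vec, 3080 to 3210 in CCND2wt and 2844 to 3853 in CCND2mut. These sums thus lay above Vec in both groups and overlapped between CCND2wt and CCND2mut. Against Vec, 11 of the 12 markers were higher past the threshold in CCND2mut and 1 (Pcna) was lower. That is 100%, against 51.8% of all genes tested. In CCND2wt against Vec 7 were higher and 0 lower, or 58.3% against 18.8%. In CCND2mut against CCND2wt 1 of the 12 markers passed, or 8.33% against 47% of all genes tested. Libraries of these groups did not overlap in 6 of the 12, beside 63.1% of all genes tested. The part of cell division in the enzyme levels was not tested. Summed maturing neutrophil markers stood at 7764, 270.8 and 325.5 CPM in Vec, 134, 70.8 and 101 in CCND2wt, and 5369, 889 and 1097 in CCND2mut. Vec 1 was the highest of all, and every CCND2mut library lay above every CCND2wt library. In CCND2mut against CCND2wt, 5 of the 8 were higher past the threshold and 0 lower. That share was 62.5%, against 47% of all genes tested. All 8 of them were detected in every library. Erythroid markers, again all detected, summed to 917 to 15780 CPM in Vec, 1526 to 1643 in CCND2wt and 32.3 to 293 in CCND2mut. Mast cell markers summed to 7171 to 10040 CPM in Vec, 16460 to 17010 in CCND2wt and 1354 to 10610 in CCND2mut, with Tpsab1 at 0 in Vec 2. Cpa3 alone averaged 7716 CPM in Vec, 8446 in CCND2wt and 3441 in CCND2mut, and so weighs heavily in that sum. In CCND2mut against Vec, 3 of the 8 mast cell markers (Mcpt4, Tpsb2 and Tpsab1) were higher past the threshold and 0 lower. That is 37.5%, against 51.8% of all genes tested. Within CCND2mut all 3 were highest in CCND2mut 2, with Tpsb2 at 35.0, 619 and 44.3 CPM. In CCND2wt against Vec 5 of the 8 were higher and 0 lower, or 62.5% against 18.8%. In CCND2mut against CCND2wt 3 were lower and 0 higher, or 37.5% against 47%. Marker levels of several cell types thus differed between libraries, and their part in the results on lipid genes was not tested.

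**Figure D2:**
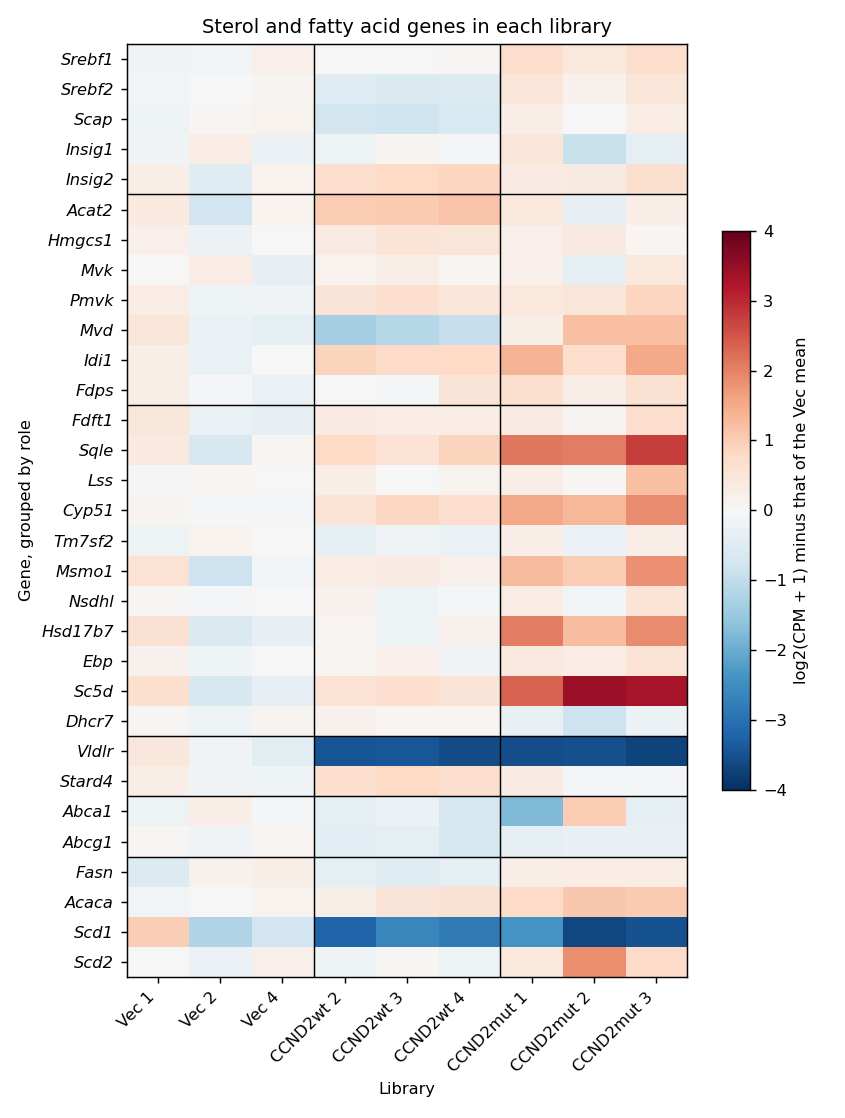
Level of each of the 31 genes (rows, grouped by role) in each library (columns), as log2(CPM + 1) minus the same of the Vec mean, with red above and blue below it. The red of Sqle, Cyp51, Hsd17b7 and Sc5d fills the CCND2mut columns, and the blue of Vldlr fills both the CCND2wt and CCND2mut columns.

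Of the SREBP system, both factors rose in CCND2mut. Srebf1, which encodes SREBP1, the form tied most closely to fatty acid genes, stood at 81.5, 83.3 and 103 CPM in Vec, 91.3, 91.0 and 91.6 in CCND2wt, and 147, 120 and 145 in CCND2mut. The CCND2mut libraries lay above all others, and the Vec and CCND2wt libraries overlapped. Its log2 fold change was 0.62 (SE 0.13, edgeR adjusted p = 0.00356) against Vec, 0.59 (SE 0.13, edgeR adjusted p = 0.00494) against CCND2wt, and 0.03 (edgeR adjusted p = 0.884) in CCND2wt against Vec. Part of Srebf1 overlaps Rai1 on the opposite strand, and the strand setting of the counting is not given in the sources used here. Rai1 itself moved the other way, at -0.81 in CCND2mut against Vec (edgeR adjusted p = 0.00655).

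Srebf2, which encodes SREBP2, the main factor of cholesterol synthesis genes (mm10 chromosome 15, 82147181 to 82205379), stood at 191, 204 and 219.5 CPM in Vec, 142, 136 and 140.3 in CCND2wt, and 285, 229 and 284 in CCND2mut. The groups did not overlap, with CCND2wt lowest, Vec between and CCND2mut highest. Srebf2 fell in CCND2wt against Vec, with a log2 fold change of -0.55 (SE 0.12, edgeR adjusted p = 0.014), and rose in CCND2mut, by 0.38 (SE 0.12, edgeR adjusted p = 0.0231) against Vec and 0.93 (SE 0.12, edgeR adjusted p = 0.000341) against CCND2wt. The first call was lost without CCND2wt 2, 3 or 4 (adjusted p from 0.0616 to 0.0663), and the second without Vec 1 or CCND2mut 1 or 3 (adjusted p from 0.0575 to 0.0682). Genes of chromosome 15, where Srebf2 and Sqle lie, stood higher in CCND2mut as a whole. Over its 436 genes that averaged 5 CPM or more, the median log2 fold change was 0.66 against Vec and 0.70 against CCND2wt, and that of all 10825 such genes was 0.06 against Vec. Within 5 Mb of Srebf2 the median was 0.72 against Vec, above the 0.38 of Srebf2 itself. The part of the chromosome in the change of Srebf2 was not tested.

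Scap, the escort of both SREBPs, stood at 68.4, 81.5 and 87.1 CPM in Vec, 47.4, 45.3 and 51.2 in CCND2wt, and 94.6, 80.2 and 98.3 in CCND2mut. It was lowest in CCND2wt, with no overlap, and the Vec and CCND2mut libraries overlapped. Scap fell by 0.72 on the log2 scale in CCND2wt against Vec (SE 0.13, edgeR adjusted p = 0.00747) and was higher in CCND2mut than in CCND2wt, by 0.92 (SE 0.13, edgeR adjusted p = 0.000558). Its value was 0.20 (edgeR adjusted p = 0.203) in CCND2mut against Vec. Srebf2 and Scap were thus both below Vec in all 3 CCND2wt libraries.

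Of the retention proteins, Insig2 passed in 1 comparison and Insig1 in none. Insig2 stood at 12.6, 7.13 and 11.4 CPM in Vec, 17.6, 18.8 and 19.6 in CCND2wt, and 13.2, 13.8 and 16.7 in CCND2mut, with each CCND2wt and CCND2mut library above all Vec libraries. It rose in CCND2wt against Vec, by 0.85 (SE 0.23, edgeR adjusted p = 0.034), a call lost without Vec 4 or CCND2wt 2, 3 or 4 (adjusted p from 0.0623 to 0.117). The value was 0.49 (edgeR adjusted p = 0.0992) in CCND2mut against Vec. Insig1, itself a well-known SREBP target, averaged 38.4 ± 7.90 CPM in Vec, 37.3 ± 4.15 in CCND2wt and 34.6 ± 17.9 in CCND2mut (mean ± SD, n = 3), and its largest spread was within CCND2mut, where the libraries stood at 54.6, 20.2 and 29.0 CPM. No comparison of Insig1 passed the threshold in the fit of all libraries. Of 18 alternative settings, 2 called it in CCND2mut against Vec and 1 in CCND2mut against CCND2wt. Over the settings, its log2 fold change ran from -0.69 to 0.11 in CCND2mut against Vec and from -0.62 to 0.12 against CCND2wt.

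**Figure D3:**
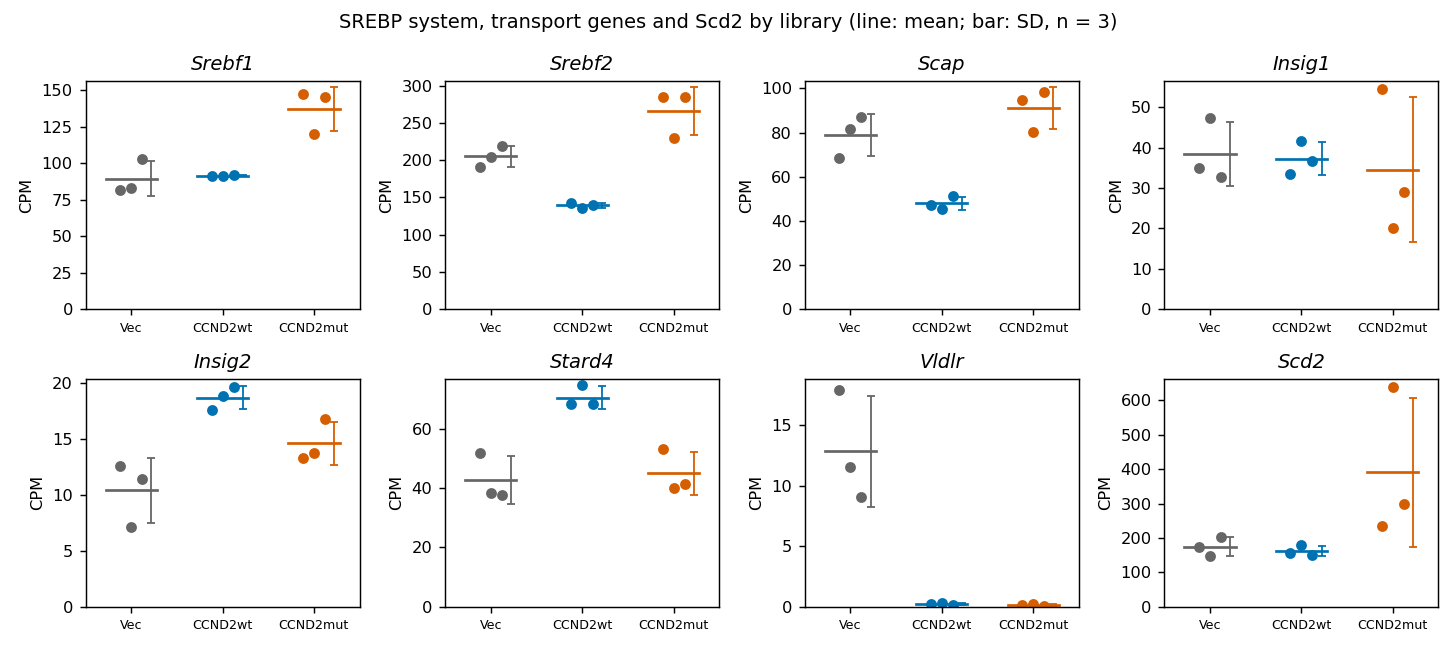
Levels in CPM of Srebf1, Srebf2, Scap, Insig1, Insig2, Stard4, Vldlr and Scd2 in each library, with points for libraries, lines for group means and bars for SD (n = 3). Srebf2 and Scap are lowest in CCND2wt, Vldlr is near 0 in all 6 libraries labelled CCND2wt or CCND2mut, and CCND2mut 2 stands alone for Scd2.

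Of the 7 genes of the mevalonate steps, 3 rose in CCND2mut against Vec (Pmvk, Mvd and Idi1) and the other 4 did not pass. The share called was 42.9%, against 51.8% of all genes tested. In CCND2wt against Vec, Acat2 and Idi1 rose and Mvd fell, or 42.9% against 18.8%. Idi1, the isomerase that makes dimethylallyl pyrophosphate, stood at 4.53, 2.92 and 3.78 CPM in Vec, 7.83, 7.14 and 7.32 in CCND2wt, and 11.2, 6.74 and 12.7 in CCND2mut. All CCND2wt and CCND2mut libraries lay above the Vec libraries, and overlapped each other. Its log2 fold change was 1.44 (SE 0.29, edgeR adjusted p = 0.00337) in CCND2mut and 0.99 (SE 0.29, edgeR adjusted p = 0.0445) in CCND2wt against Vec, the second lost without Vec 2 or 4 or CCND2wt 2, 3 or 4 (adjusted p from 0.0995 to 0.139). Between CCND2mut and CCND2wt it was 0.46 (edgeR adjusted p = 0.213).

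Mvd, the decarboxylase that makes isopentenyl pyrophosphate, moved most within these steps, and stood at 11.7, 6.59 and 5.96 CPM in Vec, 2.65, 3.12 and 3.80 in CCND2wt, and 9.71, 19.8 and 19.8 in CCND2mut. CCND2wt was lowest, with no overlap, and CCND2mut 1 lay within the range of Vec. The log2 fold change was 2.36 (SE 0.38, edgeR adjusted p = 0.00119) in CCND2mut against CCND2wt, a call kept in every fit that left out 1 library. Against Vec, Mvd fell in CCND2wt, at -1.34 (SE 0.37, edgeR adjusted p = 0.0381), and rose in CCND2mut, at 1.03 (SE 0.36, edgeR adjusted p = 0.0404). The fall was lost without Vec 1 or 2 or CCND2wt 2, 3 or 4 (adjusted p from 0.0593 to 0.139), and the rise without Vec 2 or 4, CCND2wt 2, 3 or 4 or CCND2mut 2 or 3 (adjusted p from 0.0569 to 0.125). The gene thus went in opposite directions from Vec in the labelled groups, as Srebf2 did.

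Pmvk, the phosphomevalonate kinase, stood at 10.5, 7.20 and 7.63 CPM in Vec, 12.4, 13.9 and 12.1 in CCND2wt, and 11.7, 12.2 and 16.0 in CCND2mut. Both CCND2 groups lay above Vec and overlapped each other. It rose in CCND2mut against Vec, by 0.65 (SE 0.21, edgeR adjusted p = 0.0308), a call lost without Vec 2 or 4, CCND2wt 2, 3 or 4 or CCND2mut 3 (adjusted p from 0.0517 to 0.0976). The log2 fold change was of similar size in CCND2wt against Vec, at 0.60 (SE 0.21, edgeR adjusted p = 0.0808).

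Acat2, a cytosolic thiolase that joins acetyl-CoA at the entry to the pathway, stood at 12.6, 5.03 and 10.4 CPM in Vec, 19.9, 20.3 and 21.9 in CCND2wt, and 12.8, 7.21 and 11.6 in CCND2mut. CCND2wt lay above the other groups, which overlapped. Acat2 rose in CCND2wt against Vec, by 1.15 (SE 0.34, edgeR adjusted p = 0.0471), and CCND2mut stood below CCND2wt, at -0.98 (SE 0.34, edgeR adjusted p = 0.0408). The first was lost without Vec 2 or 4, CCND2wt 2, 3 or 4 or CCND2mut 3 (adjusted p from 0.0584 to 0.141) and the second without Vec 4, CCND2wt 2, 3 or 4 or CCND2mut 2 or 3 (adjusted p from 0.0547 to 0.103). Its paralog Acat3 held 4 to 14 counts in each library. How reads that match both genes were counted is not given in the sources used here.

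Hmgcs1, the synthase that makes HMG-CoA, averaged 15.6 ± 2.57 CPM in Vec, 21.6 ± 1.74 in CCND2wt and 18.3 ± 1.90 in CCND2mut (mean ± SD, n = 3), with log2 fold changes of 0.47 (edgeR adjusted p = 0.0824) in CCND2wt and 0.23 (edgeR adjusted p = 0.279) in CCND2mut against Vec. Mvk, the mevalonate kinase, averaged 8.25 ± 1.99 CPM in Vec, 9.27 ± 0.574 in CCND2wt and 9.10 ± 2.67 in CCND2mut, and Fdps, the farnesyl pyrophosphate synthase, held 75 counts over all 9 libraries. The log2 fold change of Fdps in CCND2mut against Vec was 1.54 (SE 0.74, edgeR adjusted p = 0.112), and 2.55 without Vec 1 (adjusted p = 0.0364). Fdps overlaps another protein-coding gene model, Gm43738, on the same strand, so that the split of their reads is uncertain. Neither Hmgcs1 nor Mvk passed in any comparison.

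Of the 11 genes of the squalene and sterol steps, 6 rose in CCND2mut against Vec (Sqle, Cyp51, Msmo1, Hsd17b7, Ebp and Sc5d). That is 54.5%, close to the 51.8% of all genes tested that passed. Of the 11 log2 fold changes 10 lay above 0, with a median of 0.64. Against CCND2wt, 5 were higher (Sqle, Cyp51, Msmo1, Hsd17b7 and Sc5d) and Dhcr7 was lower, or 54.5% against 47%. Against Vec, Cyp51 alone of the 11 passed in CCND2wt, or 9.09% against 18.8%.

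Sc5d, the desaturase that puts the double bond into the B ring of lathosterol (mm10 chromosome 9, 42251595 to 42264256), stood at 8.33, 2.85 and 3.78 CPM in Vec, 7.99, 8.55 and 7.65 in CCND2wt, and 29.8, 63.5 and 58.1 in CCND2mut. Every CCND2mut library was above every other library, and Vec 1 stood with the CCND2wt libraries rather than with Vec 2 and Vec 4. Its log2 fold change was 3.33 (SE 0.44, edgeR adjusted p = 0.000478) against Vec and 2.64 (SE 0.42, edgeR adjusted p = 0.00131) against CCND2wt, the largest rise among the 31 genes in both comparisons. Against Vec it was 3.93 without Vec 1 (adjusted p = 0.000168). CCND2wt against Vec gave 0.69 (edgeR adjusted p = 0.272).

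Sqle, the squalene epoxidase and a rate-limiting enzyme of the sterol branch (mm10 chromosome 15, 59315077 to 59331192), stood at 7.06, 2.92 and 5.45 CPM in Vec, 9.68, 8.21 and 10.3 in CCND2wt, and 25.3, 24.2 and 40.5 in CCND2mut. The 3 groups did not overlap, in the order Vec, CCND2wt, CCND2mut. Sqle rose by 2.54 (SE 0.34, edgeR adjusted p = 0.000486) in CCND2mut against Vec and by 1.67 (SE 0.33, edgeR adjusted p = 0.00343) against CCND2wt. The value in CCND2wt against Vec was 0.87 (edgeR adjusted p = 0.0993). Within 5 Mb of Sqle on chromosome 15, the median log2 fold change of expressed genes was 0.98 against Vec and 0.88 against CCND2wt. The part of the chromosome in the change of Sqle was not tested.

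Hsd17b7, the reductase of the sterol C3 ketone, stood at 5.73, 1.90 and 2.5 CPM in Vec, 3.60, 2.78 and 3.96 in CCND2wt, and 17.2, 9.21 and 15.4 in CCND2mut. The CCND2mut libraries lay above all others, and Vec 1 was the highest of the other 6. Its log2 fold changes were 2.04 (SE 0.44, edgeR adjusted p = 0.00491) against Vec and 2.01 (SE 0.44, edgeR adjusted p = 0.00554) against CCND2wt. Against Vec it was 2.65 without Vec 1 (adjusted p = 0.000744), and CCND2wt against Vec gave 0.03 (edgeR adjusted p = 0.975).

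Cyp51, the demethylase that acts on lanosterol, stood at 8.51, 7.54 and 7.50 CPM in Vec, 11.8, 14.6 and 13.2 in CCND2wt, and 24.4, 21.4 and 31.9 in CCND2mut. It rose stepwise in the order Vec, CCND2wt, CCND2mut with no overlap, and was the only 1 of the 31 genes higher past the threshold at both steps. The log2 fold changes were 0.75 (SE 0.19, edgeR adjusted p = 0.0275) in CCND2wt against Vec, 0.97 (SE 0.19, edgeR adjusted p = 0.00291) in CCND2mut against CCND2wt, and 1.72 (SE 0.19, edgeR adjusted p = 0.000193) in CCND2mut against Vec. The first was lost without Vec 2 or 4 or CCND2wt 2, 3 or 4 (adjusted p from 0.0599 to 0.101). Cyp51 overlaps Akap9 on the opposite strand, which fell by 0.47 in CCND2mut against Vec (edgeR adjusted p = 0.0432) while Cyp51 rose.

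Msmo1, the oxidase that removes methyl groups at C4, stood at 10.3, 3.26 and 5.96 CPM in Vec, 8.31, 8.44 and 7.71 in CCND2wt, and 16.9, 14.2 and 25.8 in CCND2mut. The CCND2mut libraries lay above all others. It rose by 1.54 (SE 0.40, edgeR adjusted p = 0.0116) against Vec and 1.22 (SE 0.39, edgeR adjusted p = 0.0325) against CCND2wt, the second lost without CCND2wt 2, 3 or 4 or CCND2mut 3 (adjusted p from 0.0852 to 0.11). Its value was 0.32 (edgeR adjusted p = 0.605) in CCND2wt against Vec.

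Ebp, the sterol isomerase on the X chromosome, stood at 28.6, 22.3 and 24.8 CPM in Vec, 26.5, 28.9 and 22.7 in CCND2wt, and 33.6, 31.3 and 37.0 in CCND2mut. The CCND2mut libraries lay above all others by a small margin. Its log2 fold change was 0.43 (SE 0.15, edgeR adjusted p = 0.0365) against Vec, lost without Vec 2 or 4, CCND2wt 2 or CCND2mut 1 or 3 (adjusted p from 0.0575 to 0.107), and 0.38 (edgeR adjusted p = 0.0589) against CCND2wt. Xist, a noncoding RNA that silences an X chromosome in female cells, was chosen after its values were seen, and stood at 169.5, 10.7 and 879 CPM in Vec, 2276, 2111 and 2305 in CCND2wt, and 4.31, 11.8 and 4.92 in CCND2mut. It was highest in the CCND2wt libraries, lowest in CCND2mut 1 and 3 and uneven among the Vec libraries, and its part in the values of the X-linked genes Ebp and Nsdhl was not tested.

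Dhcr7, which makes cholesterol from 7-dehydrocholesterol and so acts after Sc5d, went the other way, and stood at 12, 10.2 and 12.5 CPM in Vec, 13.3, 12.3 and 12.2 in CCND2wt, and 9.23, 6.14 and 9.70 in CCND2mut. The CCND2mut libraries were the lowest. It was lower in CCND2mut than in CCND2wt, at -0.59 (SE 0.21, edgeR adjusted p = 0.0461), a call lost without Vec 4, CCND2wt 2, 3 or 4 or CCND2mut 2 (adjusted p from 0.0598 to 0.131), and its value against Vec was -0.47 (edgeR adjusted p = 0.0934). Sc5d and Dhcr7, which act in succession, thus differed in direction in CCND2mut against CCND2wt.

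The other 4 of these 11 genes did not pass in any comparison. Lss, the cyclase that makes lanosterol, averaged 10.7 ± 0.504 CPM in Vec, 11.9 ± 1.24 in CCND2wt and 16.6 ± 7.91 in CCND2mut (mean ± SD, n = 3), with CCND2mut 3 at 25.7 CPM standing above the rest. Fdft1, the squalene synthase, averaged 12.6 ± 4.46 CPM in Vec, 15.8 ± 0.119 in CCND2wt and 16.9 ± 3.57 in CCND2mut, and Nsdhl, a C4 decarboxylating dehydrogenase on the X chromosome, 11.5 ± 0.483 CPM in Vec, 11.3 ± 1.72 in CCND2wt and 14.1 ± 3.37 in CCND2mut. Tm7sf2, a sterol reductase, averaged 7.39 ± 0.985 CPM in Vec, 6.04 ± 0.543 in CCND2wt and 8.08 ± 1.68 in CCND2mut. Fdft1 overlaps Ctsb on the opposite strand and Tm7sf2 overlaps Vps51 on the same strand, so that the split of their reads is uncertain.

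**Figure D4:**
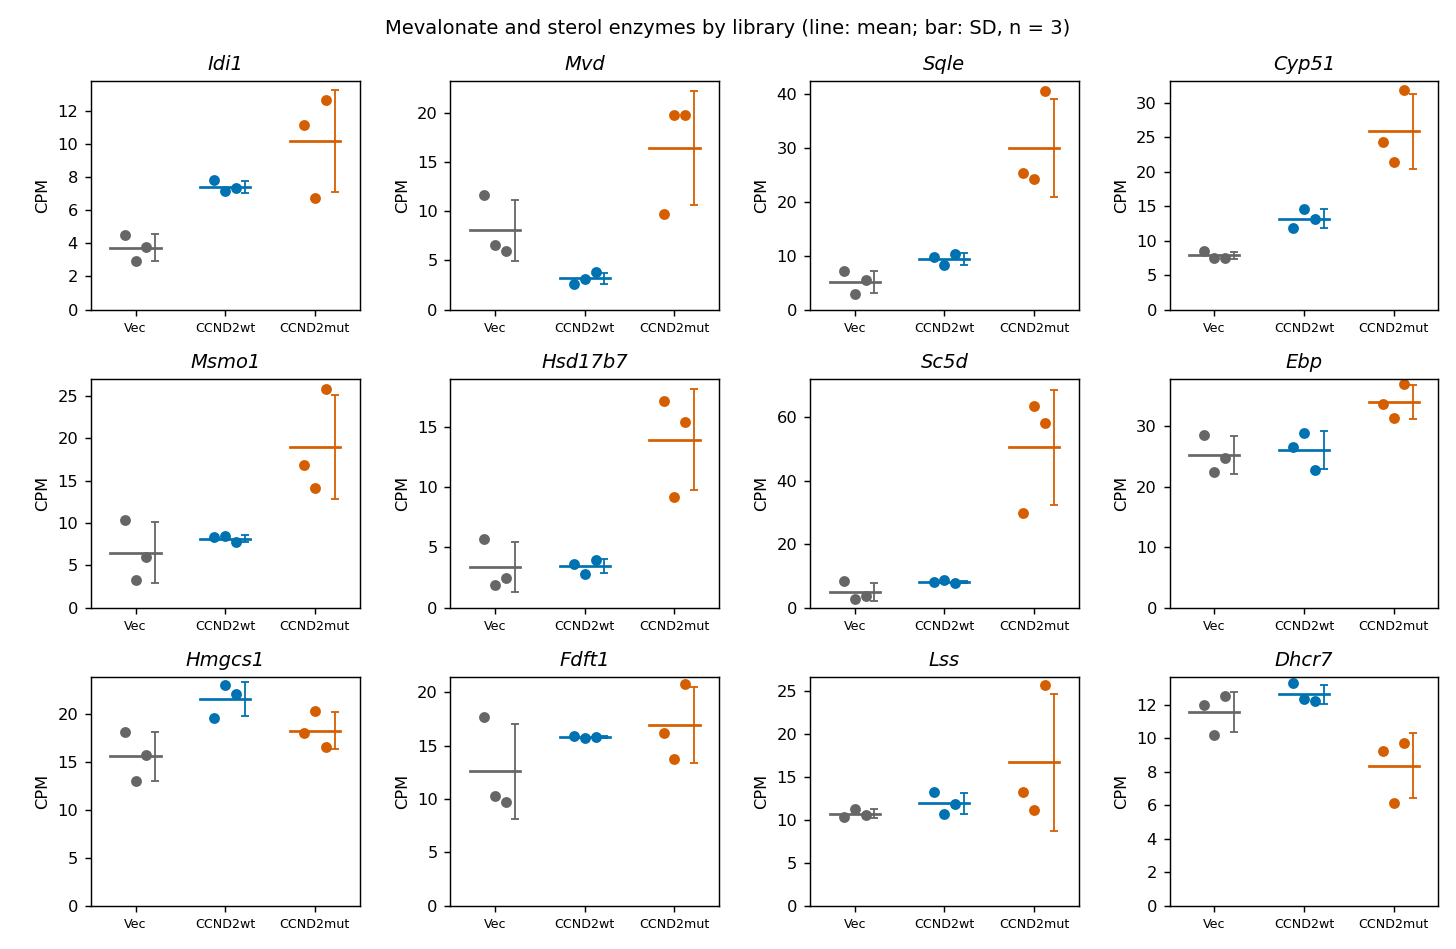
Levels in CPM of 12 enzymes of the mevalonate and sterol steps in each library, with points for libraries, lines for group means and bars for SD (n = 3). Sqle, Cyp51, Msmo1, Hsd17b7, Ebp and Sc5d are highest in the 3 CCND2mut libraries, while Fdft1 overlaps between groups and Dhcr7 is lowest in CCND2mut.

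Vldlr, the receptor that takes up lipoproteins rich in triglyceride (mm10 chromosome 19, 27216484 to 27254231), showed the largest difference of the 31 genes. It stood at 17.9, 11.5 and 9.04 CPM in Vec, 0.265, 0.283 and 0.165 in CCND2wt, and 0.182, 0.200 and 0.0664 in CCND2mut. All 6 libraries labelled CCND2wt or CCND2mut were close to 0, and all 3 Vec libraries were above 9 CPM. The log2 fold change was -5.71 (SE 0.45, edgeR adjusted p = 0.000288) in CCND2wt and -6.35 (SE 0.48, edgeR adjusted p = 3.92e-05) in CCND2mut against Vec, and both calls were kept in every fit that left out 1 library. Summed over 7 B cell markers, the level was 261, 42.2 and 62.1 CPM in Vec, 20.9 to 22.8 in CCND2wt and 4.85 to 14.3 in CCND2mut, with Ms4a1 at 0 in CCND2mut 2 and 3, and Pax5 and Ebf1 at 0 in CCND2mut 2. These markers were thus highest in Vec, as Vldlr and Scd1 were, and their part in either result was not tested. The value of Vldlr in CCND2mut against CCND2wt was -0.64 (edgeR adjusted p = 0.418), from 7 and 13 counts per group.

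Stard4, a soluble carrier that moves cholesterol between membranes, stood at 51.9, 38.4 and 37.7 CPM in Vec, 68.4, 74.8 and 68.3 in CCND2wt, and 53.3, 39.9 and 41.5 in CCND2mut. The CCND2wt libraries were the highest, and the CCND2mut and Vec libraries overlapped. It rose in CCND2wt against Vec, by 0.72 (SE 0.16, edgeR adjusted p = 0.0181), and CCND2mut stood below CCND2wt, at -0.65 (SE 0.16, edgeR adjusted p = 0.0107). The first was lost without Vec 4 or CCND2wt 2, 3 or 4 (adjusted p from 0.0594 to 0.0718), and the second was kept in every fit that left out 1 library. Acat2 and Stard4 were the members past the threshold both as higher in CCND2wt than in Vec and as lower in CCND2mut than in CCND2wt.

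Of the efflux transporters, Abcg1, which hands cholesterol to HDL, stood at 66.9, 59.3 and 69.3 CPM in Vec, 48.2, 48.9 and 39.3 in CCND2wt, and 49.4, 53.2 and 52.3 in CCND2mut. All Vec libraries lay above all others. It fell in both groups against Vec, with log2 fold changes of -0.52 (SE 0.12, edgeR adjusted p = 0.0192) in CCND2wt and -0.34 (SE 0.12, edgeR adjusted p = 0.0408) in CCND2mut. The first was lost without Vec 1 or 4 or CCND2wt 2, 3 or 4 (adjusted p from 0.0518 to 0.0852), and the second without Vec 1 or 4, CCND2wt 2 or 3 or CCND2mut 1, 2 or 3 (adjusted p from 0.0559 to 0.112). Abca1, which loads cholesterol onto apolipoprotein A-I, spread widely within CCND2mut, at 14.9, 109 and 40.5 CPM, against 46.0, 63.6 and 50.1 in Vec and 40.6, 45.3 and 33.1 in CCND2wt. CCND2mut 1 was the lowest and CCND2mut 2 the highest of all 9 libraries, and no comparison of Abca1 passed. Summed markers of monocytes and macrophages, cells rich in both transporters, were at 47.6 to 280.1 CPM in Vec, 22.9 to 24.8 in CCND2wt and 222 to 259 in CCND2mut, with all 10 genes detected in 8 of the 9 libraries. The part of these markers in the values was not tested.

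The fatty acid genes split between the desaturases. Scd2, a desaturase found in most mouse tissues (mm10 chromosome 19, 44293676 to 44306864), stood at 174, 148 and 203 CPM in Vec, 156, 179.6 and 151 in CCND2wt, and 236, 638 and 299.5 in CCND2mut. The CCND2mut libraries were the highest, CCND2mut 2 by far, and the Vec and CCND2wt libraries overlapped. It rose by 1.16 (SE 0.34, edgeR adjusted p = 0.0197) against Vec and 1.27 (SE 0.34, edgeR adjusted p = 0.0149) against CCND2wt. The value was 0.61 without CCND2mut 2 (adjusted p = 0.0231) against Vec. The first call was lost without Vec 2 (adjusted p = 0.0734), and the second without CCND2wt 2 or 4 (adjusted p from 0.0556 to 0.0576).

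Scd1, its neighbour and the main desaturase of liver and fat (chromosome 19, 44394451 to 44407709), stood at 23.8, 4.48 and 6.41 CPM in Vec, 0.370, 1.08 and 0.770 in CCND2wt, and 1.40, 0 and 0.133 in CCND2mut. Every Vec library lay above every other, and Vec 1 was far above Vec 2 and Vec 4. The log2 fold change was -3.96 (SE 1.14, edgeR adjusted p = 0.0452) in CCND2wt and -4.46 (SE 1.19, edgeR adjusted p = 0.0137) in CCND2mut against Vec. In CCND2wt against Vec it was -2.85 without Vec 1 (adjusted p = 0.0941), and the call was lost without Vec 1, 2 or 4, CCND2wt 2, 3 or 4 or CCND2mut 3 (adjusted p from 0.0501 to 0.164). For CCND2mut against Vec it was -3.38 without Vec 1 (adjusted p = 0.0307) and -7.29 without CCND2mut 1 (adjusted p = 0.00273). Summed markers of stroma and fat cells were 25.0 CPM in Vec 1, 2.45 in Vec 2, 3.21 in Vec 4, 1.64 to 2.64 in CCND2wt and 8.10 to 21.7 in CCND2mut. Of the 8, all were detected in Vec 1 and 5 in each other library, and Adipoq, the defining fat cell gene, had 8 counts in Vec 1 and 0 in all others. Plin1, of the same list, had 1 count in Vec 1, 2 in CCND2mut 2 and 0 elsewhere. Col1a1 went the other way, at 3.50, 0 and 0.449 CPM in Vec and 17.7, 16.4 and 3.25 in CCND2mut. It made up most of the sums of CCND2mut 1 and 2. The part of fat cells in the level of Scd1 was not tested.

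Per length, Scd2 made up 86.6%, 96.7% and 96.6% of the summed RPKM of Scd1 and Scd2 in Vec. The same share was 99.7%, 99.3% and 99.4% in CCND2wt, and 99.3%, 100% and 99.95% in CCND2mut. Scd2 was thus the major form of the pair in every library, and Vec 1 had the lowest share. The paralog Scd3 had 164 counts in CCND2mut 2, 4 in CCND2mut 1 and 9 in CCND2mut 3, and at most 2 in any other library. How reads that match more than 1 of these related genes were split is not given in the sources used here.

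Acaca, the carboxylase that makes malonyl-CoA, stood at 13.9, 14.9 and 16.7 CPM in Vec, 18, 22.1 and 23.5 in CCND2wt, and 26.5, 33.0 and 32.5 in CCND2mut. The groups did not overlap, in the order Vec, CCND2wt, CCND2mut. It rose by 1.01 (SE 0.16, edgeR adjusted p = 0.00104) in CCND2mut against Vec and by 0.53 (SE 0.16, edgeR adjusted p = 0.0228) against CCND2wt, the second lost without CCND2wt 2 or 3 or CCND2mut 2 or 3 (adjusted p from 0.0603 to 0.101). The value was 0.48 (edgeR adjusted p = 0.0657) in CCND2wt against Vec. Fasn, the synthase that builds palmitate from malonyl-CoA, stood at 137, 224 and 236 CPM in Vec, 156, 142 and 154 in CCND2wt, and 242, 246 and 246 in CCND2mut. The CCND2mut libraries were close together and the highest, and Vec 1 was the lowest of all. It was higher in CCND2mut than in CCND2wt, by 0.70 (SE 0.19, edgeR adjusted p = 0.0143), lost without CCND2wt 3 (adjusted p = 0.0585), and its value against Vec was 0.30 (edgeR adjusted p = 0.207).

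Per length, Scd2 had the highest mean level of the 31 genes in each group, at 32.1 RPKM in Vec, 29.8 in CCND2wt and 71.7 in CCND2mut, and Srebf2 the next, at 28.5, 19.4 and 37.0 RPKM. In Vec their libraries overlapped, at 27.1 to 37.3 RPKM for Scd2 and 26.6 to 30.6 for Srebf2, so that their order there is within the spread. Fasn, Abcg1 and Srebf1 followed in Vec, at 18.2, 16.0 and 15.8 RPKM, with overlapping libraries. Sc5d stood at rank 26 of 31 by mean RPKM in Vec, 23 in CCND2wt and 9 in CCND2mut, where its level was 10.4 RPKM. Sqle went from rank 28 in Vec to 14 in CCND2mut. Vldlr held rank 23 in Vec and 31 in both other groups. Fdps was the lowest in Vec at 0.0642 RPKM, a level left uncertain by its overlap with Gm43738.

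Other genes of the same pathways were read in 3 further lists. Of 9 other sterol pathway genes, 2 rose and 1 fell in CCND2mut against Vec, 3 were higher and 1 lower in CCND2mut against CCND2wt, and 1 rose in CCND2wt against Vec. In that order the shares called were 33.3%, 44.4% and 11.1%, against 51.8%, 47% and 18.8% of all genes tested. Tmem97, a sterol-regulated membrane protein, averaged 10.7 ± 2.32 CPM in Vec, 22.9 ± 2.82 in CCND2wt and 36.1 ± 6.25 in CCND2mut (mean ± SD, n = 3) and passed in all 3 comparisons, at 1.10 (SE 0.21, edgeR adjusted p = 0.0101) in CCND2wt against Vec, 1.76 (SE 0.21, edgeR adjusted p = 0.000291) in CCND2mut against Vec and 0.66 (SE 0.21, edgeR adjusted p = 0.028) between them. Ggps1, which makes the geranylgeranyl group for protein prenylation, was lower in CCND2mut than in CCND2wt, at -0.74 (SE 0.16, edgeR adjusted p = 0.0054). Soat1, which esterifies cholesterol for storage, stood at 16.2, 2.65 and 3.98 CPM in Vec, 2.49, 4.36 and 3.30 in CCND2wt, and 26.0, 13.7 and 26.3 in CCND2mut. Vec 1 lay above CCND2mut 2 while Vec 2 and 4 were with the CCND2wt libraries, and Soat1 was higher in CCND2mut than in CCND2wt, at 2.70 (SE 0.67, edgeR adjusted p = 0.0108), with a value of 1.53 (edgeR adjusted p = 0.0751) in CCND2mut against Vec. Lipa, the lysosomal lipase that frees cholesterol from its esters, stood at 36.3, 22.3 and 29.4 CPM in Vec, 15.4, 13.3 and 16.8 in CCND2wt, and 16.0, 11.0 and 4.45 in CCND2mut. It fell in CCND2mut against Vec, at -1.48 (SE 0.41, edgeR adjusted p = 0.0151).

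Of 18 other fatty acid synthesis genes, 17 were tested. Of these, 4 rose and 5 fell in CCND2mut against Vec, 1 rose and 2 fell in CCND2wt against Vec, and 2 were higher and 5 lower in CCND2mut against CCND2wt. The shares called were thus 52.9%, 17.6% and 41.2%, against 51.8%, 18.8% and 47% of all genes tested. Elovl6, which lengthens palmitate to stearate, fell in both groups, and stood at 58.5, 84.9 and 70.7 CPM in Vec, 23.4, 22.3 and 21.1 in CCND2wt, and 23.9, 18.4 and 17.1 in CCND2mut. Its log2 fold changes against Vec were -1.68 (SE 0.18, edgeR adjusted p = 0.0011) and -1.85 (SE 0.18, edgeR adjusted p = 0.000106). Slc25a1, the mitochondrial citrate carrier that supplies carbon for acetyl-CoA, averaged 59.4 ± 10.2 CPM in Vec, 40.9 ± 1.47 in CCND2wt and 25.5 ± 3.62 in CCND2mut. It fell, at -1.22 (SE 0.16, edgeR adjusted p = 0.000382) in CCND2mut and -0.54 (SE 0.15, edgeR adjusted p = 0.043) in CCND2wt against Vec. In CCND2mut against CCND2wt it was lower, at -0.68 (SE 0.16, edgeR adjusted p = 0.0069). Fads1, a desaturase of polyunsaturated fatty acids, averaged 28.2 ± 4.14 CPM in Vec, 65.9 ± 0.991 in CCND2wt and 34.2 ± 8.80 in CCND2mut, and was higher in CCND2wt than in Vec, at 1.22 (SE 0.19, edgeR adjusted p = 0.00451), with CCND2mut below CCND2wt, at -0.94 (SE 0.19, edgeR adjusted p = 0.00368). Elovl7, an elongase of long fatty acids, averaged 31.4 ± 4.16 CPM in Vec, 40.3 ± 1.18 in CCND2wt and 13.2 ± 5.14 in CCND2mut. It was lower in CCND2mut, at -1.26 (SE 0.25, edgeR adjusted p = 0.00318) against Vec and -1.62 (SE 0.25, edgeR adjusted p = 0.00101) against CCND2wt. Of these 4, none rose past the threshold in CCND2mut against Vec.

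Of 10 LXR receptors and targets, 9 were tested. For CCND2mut against Vec 4 fell and the other 5 did not pass, in CCND2wt against Vec 1 rose and 1 fell, and in CCND2mut against CCND2wt 1 was higher and 3 were lower. Shares called were 44.4%, 22.2% and 44.4% in these comparisons, against 51.8%, 18.8% and 47% of all genes tested. Apoe, the apolipoprotein that carries cholesterol out of macrophages, stood at 2185, 1034 and 1547 CPM in Vec, 1546, 1741 and 1472 in CCND2wt, and 74.8, 22.2 and 38.3 in CCND2mut. Every CCND2mut library lay far below all others, at a log2 fold change of -5.14 (SE 0.50, edgeR adjusted p = 0.000125) against Vec, and CCND2wt overlapped Vec. Smpdl3a, a phosphodiesterase raised by LXR in human macrophages, stood at 52.4, 34.4 and 32.6 CPM in Vec, 13.8, 12.1 and 12 in CCND2wt, and 2.06, 1.33 and 0.598 in CCND2mut. It fell in CCND2wt, at -1.66 (SE 0.35, edgeR adjusted p = 0.014), and in CCND2mut, at -4.89 (SE 0.41, edgeR adjusted p = 5.98e-05) against Vec. Arl4c, a small GTPase, fell in CCND2mut against Vec, at -1.85 (SE 0.34, edgeR adjusted p = 0.00242), and Rxra, the partner receptor of LXR, was higher in CCND2wt than in Vec, at 0.54 (SE 0.13, edgeR adjusted p = 0.0266), and lower in CCND2mut than in CCND2wt, at -0.86 (SE 0.13, edgeR adjusted p = 0.00102).

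**Figure D5:**
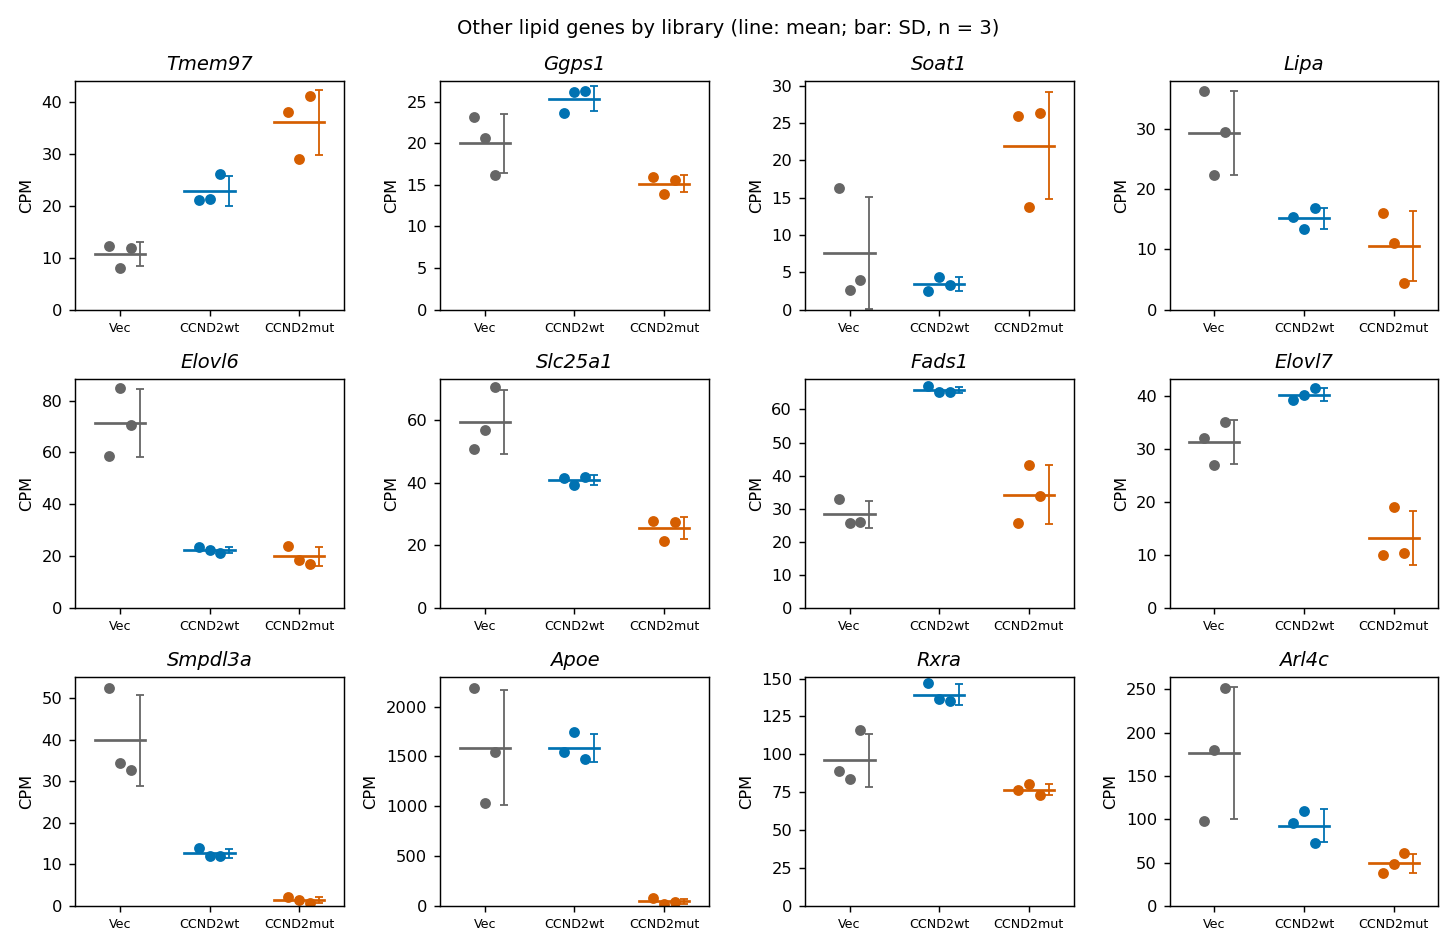
Levels in CPM of 12 other sterol, fatty acid and LXR genes in each library, with points for libraries, lines for group means and bars for SD (n = 3). Tmem97 is highest in CCND2mut, Elovl6 is lower in CCND2wt and CCND2mut than in Vec, and Apoe and Smpdl3a are lowest in CCND2mut.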

How the data were processed

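RNA of 9 libraries of mouse bone marrow cells was extracted with TRIzol and prepared with an NEBNext Ultra kit, per the labels' protocols. The authors deposited whole-number read counts for each gene, without scaling. Per the submitters' processing notes, the tools were CASAVA 1.8, fastp, HISAT2 2.0.5 on mm10 and featureCounts 1.5.0-p3, beside DESeq2 1.20.0 in a role not stated. The annotation release and the counting's strand setting were not found in these sources. Titles gave the groups, and 0 count columns had no group.

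Genes were filtered with filterByExpr and scaled by TMM factors. All libraries entered 1 robust quasi-likelihood fit in edgeR 4.0.16 under R 4.3.3 (limma version 3.58.1), with 6 residual degrees of freedom and Benjamini-Hochberg adjustment over 15660 genes at 0.05. The fit was first tested on simulated data. CPM uses TMM-scaled library sizes, and RPKM divides it by the gene length in the file. The members and lists were chosen with earlier results of these data known, so no p is given over a list. Per-library values are given for members past the threshold in at least 1 comparison, and up to 4 genes of each further list are named by smallest adjusted p. Some genes of these lists are not reported here. Chromosome medians used genes averaging 5 CPM or more, and windows reached 5 Mb to each side. Alternatives were RLE scaling, DESeq2 1.42.0, no or a stricter filter on low counts, fits without the third group, the replicate number as a block, scaling without haemoglobin, immunoglobulin and mitochondrial genes, CCND2wt summed to 1 sample, and libraries left out.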

Additional observations from a re-analysis of the deposited data

How the results depend on the processing

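With 9 libraries, low genes such as Fdps rest on few counts, and calls near the threshold on few libraries. Leaving out 1 library at a time gave 1019 to 3817 genes and 2 to 13 members past the threshold in CCND2wt against Vec, from 2938 and 11. With the CCND2wt libraries summed to 1 sample these were 39 genes and 0 members (edgeR; 6 at an unadjusted p under 0.05, and DESeq2 with 3 libraries called 14), and with Vec 1 and CCND2mut 1 left out 4470 and 17. In CCND2mut against Vec, 10 members passed in a fit of only the groups compared and 10 with CCND2wt summed, from 16. In CCND2mut against CCND2wt, 2378 genes and 2 members passed with CCND2wt summed, from 7360 and 15. No member past the threshold changed direction under any setting tried.

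Same-numbered libraries of different groups correlated in their deviations from group means at -0.073 to 0.187, and differently numbered ones at -0.214 to 0.259. With means of 3 libraries, these values cannot decide whether the replicate numbers pair the samples. With a replicate block, 1636 genes and 5 members passed in CCND2wt against Vec, 6751 and 10 in CCND2mut against Vec, and 6045 and 13 in CCND2mut against CCND2wt. Under the block, the log2 fold changes of Insig1 (0.0657) and Lss (-0.0104) in CCND2wt against Vec, Mvk (-0.0504) and Abca1 (-0.42) in CCND2mut against Vec, and Pmvk (-0.0319) and Fdft1 (-0.0897) in CCND2mut against CCND2wt changed sign, none of them past the threshold.

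Other sign changes were of members not past the threshold in the fit of all libraries, and their cause was not tested. Those in CCND2wt against Vec were Insig1 (0.0091) and Nsdhl (0.0251) with no filter, Nsdhl (0.0126) with CCND2wt summed, and Srebf1 (-0.0037) and Nsdhl (0.04) without Vec 1 and CCND2mut 1. Those in CCND2mut against Vec were Abca1 (-0.0032) under the stricter filter (5 CPM on average) and Tm7sf2 (-0.0425) without Vec 1 and CCND2mut 1. With 1 library left out, log2 fold changes in CCND2wt against Vec ran from -0.0032 to 0.15 for Srebf1, -0.14 to 0.0757 for Nsdhl, -0.14 to 0.16 for Insig1, -0.24 to 0.67 for Hsd17b7, -0.0324 to 0.17 for Ebp, -0.19 to 0.0173 for Scd2 and -0.14 to 1.70 for Fdps. For CCND2mut against Vec they ran from -0.95 to 0.49 for Abca1, -0.64 to 0.11 for Insig1, -0.14 to 0.43 for Acat2, -0.0678 to 0.24 for Stard4 and -0.0552 to 0.35 for Mvk. In CCND2mut against CCND2wt they ran from -0.23 to 0.15 for Mvk, -0.60 to 0.12 for Insig1, -0.55 to 0.91 for Abca1, -3.33 to 0.0219 for Scd1, -0.10 to 0.14 for Pmvk and -0.0748 to 0.19 for Fdft1.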
